A study of Mus musculus with 9 samples.

Results

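The transcripts of NF-kB subunits and IkB proteins were followed in TtT/GF cells, a mouse line of pituitary folliculostellate cells, before and after treatment with NECA. NECA is a stable analog of adenosine and acts on its receptors. The genes were Bcl3, Nfkb1, Nfkb2, Rel, Rela, Relb, Nfkbia, Nfkbib and Nfkbie, and a probe set was included if GEO's platform annotation gave it a single symbol and that symbol was among these 9. The rule found 11 probe sets for 8 genes, among 12422 probe sets other than controls, and Nfkb1 was not analysed here. There were 3 groups of 3 arrays, untreated cells and those exposed to 10 µM NECA for either 30 or 120 min. The culture medium of all groups held heat-inactivated fetal bovine serum, and the design text calls the samples replicate cultures. The labels give the untreated cells neither a vehicle nor a time, so handling and NECA cannot be told apart.

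NF-kB is a family of dimeric transcription factors. Rela, Relb and Rel carry activation domains, whereas the products of Nfkb1 and Nfkb2 are processed to the DNA-binding subunits p50 and p52. The classical IkB proteins, encoded by Nfkbia, Nfkbib and Nfkbie, hold dimers in the cytoplasm until an IkB kinase marks them for degradation, and Nfkbia is itself an NF-kB target gene that closes a feedback loop. Bcl3 belongs to the same ankyrin repeat family but acts in the nucleus, where it binds p50 or p52 dimers and can raise or lower transcription. Folliculostellate cells are non-hormonal cells of the anterior pituitary that release interleukin-6, a cytokine whose gene NF-kB can activate.

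The arrays of a group correlated with each other at 0.947 to 0.978 across the tested probe sets, a description of genes that are not independent. RNA integrity, read as the signal ratio of 3' to 5' Gapdh probe sets (the Gapdh ratio below), was 0.995 ± 0.028 in untreated cells, 0.921 ± 0.038 at 30 min and 0.947 ± 0.029 at 120 min (mean ± SD of 3 arrays, two-sided exact permutation p = 0.1 and 0.2 against untreated). Every array at 30 min lay below every untreated array, at most 0.955 against at least 0.964. The median signal of an array was 37.4 ± 1.05 in untreated cells, 34.6 ± 0.96 at 30 min and 34.5 ± 1.56 at 120 min, with no overlap between untreated and treated arrays (exact permutation p = 0.1 for each), and its part in the results was not tested beyond quantile normalization. With 3 arrays against 3 the exact test cannot go below 0.1, and the number of arrays limits the precision throughout. Among 10 folliculostellate markers 8 passed the filter on low signals, S100b and Gja1 among them, while the probe sets of Vim and Fgf2 did not pass, and of the 8 only Vegfa changed, higher at 120 min (1.13 ± 0.20, adjusted p = 0.00599). By limma 3.38% of all tested probe sets changed at that time. The 11 macrophage and leukocyte markers on the array had summed signals of 889 to 945 in untreated cells, 947 to 1119 at 30 min and 944 to 1212 at 120 min. Most of that signal came from Cd68 and Cd14. The leukocyte genes Ptprc, Itgam and Adgre1 were near background at untreated means of 2.29, 3.55 and 6.02, whereas Cd68, Cd14, Lyz2, Fcgr3 and Cd52 passed the filter. Of these 5 markers 0 changed in any comparison by limma, with 1 at an unadjusted p under 0.05 at 120 min and 0 in the other comparisons. Over all tested probe sets 8.57% had such a p at 30 min, 15.3% at 120 min and 13.0% between the times. The 8 pituitary hormone cell markers summed to 349 to 389, 285 to 339.9 and 235 to 364 in the same order of groups. Of these, 6 passed the filter (Pomc, Gh, Prl, Lhb, Cga and Chga), so passing it does not set folliculostellate markers apart from those of hormone cells. The 8 endothelial markers summed to 563 to 698, 601 to 754 and 576 to 659, and only Pecam1 and Eng of these passed the filter. The part of these markers in the results below was not tested.

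Of the 11 probe sets, 8 passed the filter, a signal above 20.5 in at least 3 of the 9 arrays, and were tested with limma on log2(signal + 7.93). The other 3 measured Rel (98813_at) and a second probe set each of Rela (162042_i_at) and Relb (162372_f_at), with signals between 0.803 and 5.17 on all 9 arrays. Rel, which encodes c-Rel, had signals of 1.50, 1.91 and 4.62 in untreated cells, 1.95, 1.74 and 0.803 at 30 min, and 1.88, 1.39 and 3.15 at 120 min. Its groups overlapped, and no fold is given at such signals.

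Bcl3 was the member with the largest change at both times. Its signal (102239_at) was 55.1, 43.3 and 22.7 in the 3 untreated cultures, 168, 128 and 116 after 30 min of NECA, and 484, 371 and 406 after 120 min. Every array of a group lay above every array of the group before it, so the order untreated, 30 min, 120 min held without overlap. The means were 40.4 ± 16.4, 137 ± 27.2 and 421 ± 57.8 (SD, n = 3 each). On the log2(signal + offset) scale Bcl3 rose by 1.63 ± 0.24 (SE) at 30 min, 3.10-fold, with a 95% interval of 1.11 to 2.16 and an adjusted p of 0.00939. At 120 min it stood 3.20 ± 0.24 above untreated cells, 9.21-fold (interval 2.68 to 3.73, adjusted p = 6.04e-06). Between 30 and 120 min it rose by a further 1.57 ± 0.24 (interval 1.05 to 2.09, adjusted p = 0.00263). The means of the plain signals differed 3.40-fold at 30 min and 10.4-fold at 120 min. In RNA from whole cultures, a change in the number of responding cells and a change in RNA per cell cannot be told apart.

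The rise of Bcl3 at 120 min passed under all 18 alternative settings (log2 change 2.89 to 3.43). The rise at 30 min passed without each single array (1.34 to 1.86, adjusted p up to 0.0484), but with the Gapdh ratio as a covariate it was 1.54 with an adjusted p of 0.682. The ratio did not overlap between untreated and 30 min arrays, so this fit cannot separate it from NECA.

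The promoter of Bcl3 is shown because its transcript rose at both times. The window runs from 250 bases before to 50 bases after the start site, at chr7:19822706-19823005 on the minus strand (RefSeq, GRCm38.p6), and is written 5′ to 3′ in the direction of the gene. Capitals mark matches to the kB-type motif (GGG, any 5 bases, CC) on either strand.
Bcl3: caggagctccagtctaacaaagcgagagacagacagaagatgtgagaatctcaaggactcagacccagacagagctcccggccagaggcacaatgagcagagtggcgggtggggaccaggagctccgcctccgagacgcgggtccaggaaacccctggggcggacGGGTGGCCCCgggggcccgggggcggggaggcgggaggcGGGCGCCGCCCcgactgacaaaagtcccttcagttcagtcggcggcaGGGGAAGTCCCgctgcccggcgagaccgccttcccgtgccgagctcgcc
Matches began at 5 positions, the first at -85, the next at -46 and -45 and the last at 2 and 3 relative to the start site, so 4 of them overlap in pairs. The motif is loose and 50.8% of 32851 promoter windows of the same length hold it. The Bcl3 window held no match on either strand to the cAMP response element TGACGTCA (in 1.79% of windows), to its part TGACG (20.8%) or to the STAT-type motif TTCNNNGAA (8.3%). Such matches are descriptions of letters and not evidence of binding.

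**Figure D1:**
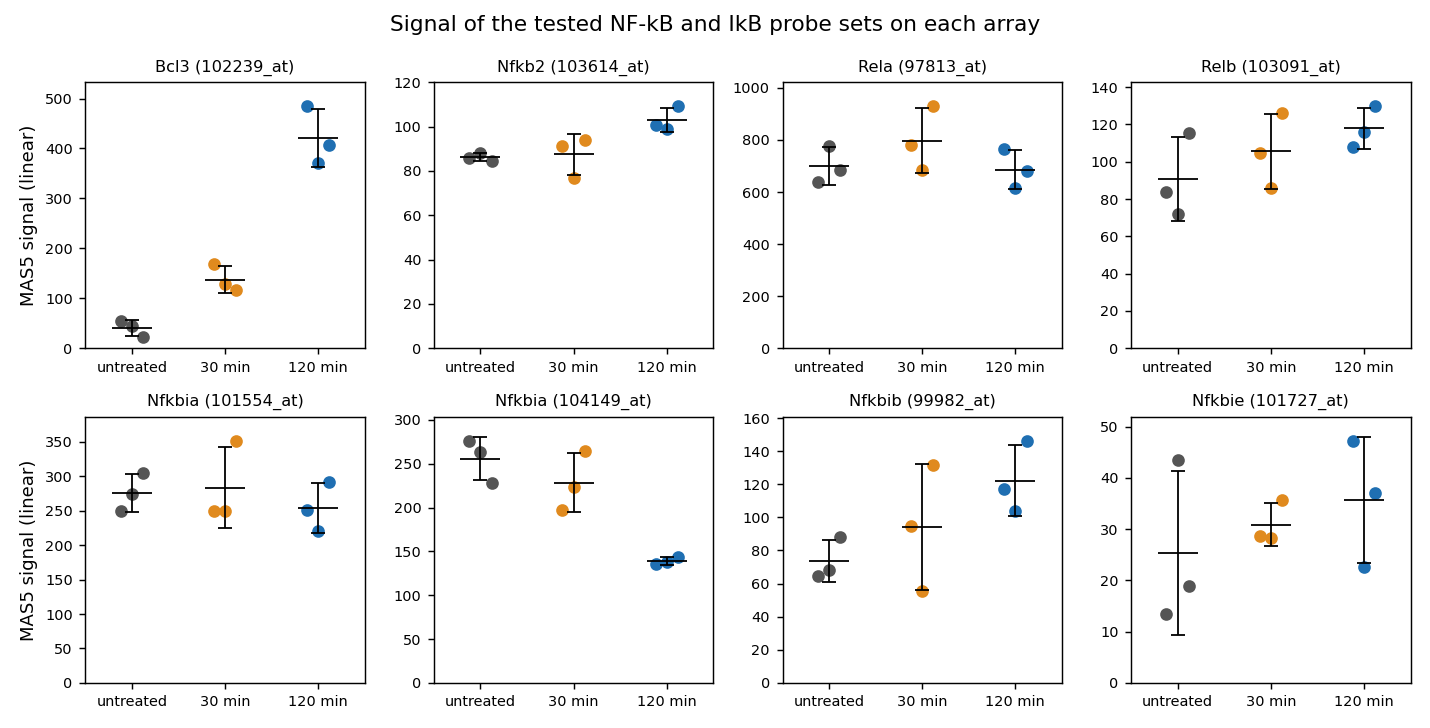
MAS5 signal on a linear scale (y axis, from 0) of the 8 tested probe sets in untreated cells and after 30 or 120 min of NECA (x axis); points are arrays, the bar is the mean and the whiskers are the SD of 3 arrays. Bcl3 climbs from a mean of 40.4 to 421 with no overlap between groups, Nfkbia 104149_at is lowest at 120 min with 135 to 144, and most other groups overlap.

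Among the tested subunit genes (Rela, Relb and Nfkb2), none passed limma's test in any of the 3 comparisons, and the smallest unadjusted p was 0.0651, for Relb at 120 min. Rela (97813_at), which encodes p65, the main activating subunit of the classical pathway, had signals of 637, 779 and 685 untreated, 781, 684 and 929 at 30 min, and 765, 614 and 680.4 at 120 min. The 3 groups overlapped. Its log2 change was 0.18 ± 0.14 at 30 min (interval -0.14 to 0.50, adjusted p = 0.677) and -0.03 ± 0.14 at 120 min (interval -0.35 to 0.29, adjusted p = 0.943).

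Relb (103091_at), the partner of p52 in the non-canonical pathway, measured 84.0, 72.2 and 116 untreated, 105, 85.8 and 126 at 30 min, and 108, 116 and 129.65 at 120 min. The highest untreated array lay within the range of both treated groups. Its changes were 0.21 ± 0.18 at 30 min (interval -0.19 to 0.61, adjusted p = 0.688) and 0.37 ± 0.18 at 120 min (interval -0.03 to 0.77, adjusted p = 0.359).

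Nfkb2 (103614_at), the gene of p100 and p52, was at 86.0, 88.0 and 84.7 untreated, 91.5, 77.0 and 94.1 at 30 min, and 101, 99.2 and 109 at 120 min. All 3 arrays at 120 min lay above all 6 others, by a small margin. The change was 0.02 ± 0.13 at 30 min (adjusted p = 0.966) and 0.24 ± 0.13 at 120 min (interval -0.04 to 0.51, adjusted p = 0.394). That interval ends below the interval of Bcl3 at the same time.

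The classical IkB genes gave mixed values. Nfkbia, which encodes IkB alpha, has a pair of probe sets on the array, and their values took different courses. On 104149_at the signals were 276, 264 and 228 untreated, 197, 223 and 265 at 30 min, and 135, 138 and 144 at 120 min. The 120 min arrays lay below all others and close together, while untreated and 30 min arrays overlapped. This probe set fell by 0.84 on the log2 scale at 120 min (SE 0.14, interval -1.14 to -0.54, adjusted p = 0.00444), to a level 0.558 times that of untreated cells. Its change at 30 min was -0.16 ± 0.14 (adjusted p = 0.685), and from 30 to 120 min it fell by 0.68 (SE 0.14, adjusted p = 0.0196). The last call was lost without NECA 120 min replicate 1, 2 or 3 (adjusted p = 0.0802, 0.0785 and 0.0622), with the fit limited to the compared groups (0.0598) and with the Gapdh ratio as a covariate (0.066). The fall against untreated cells passed under all 18 alternatives (adjusted p up to 0.0335).

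On 101554_at, the other Nfkbia probe set, the signals were 249, 274 and 305 untreated, 249, 249 and 351 at 30 min, and 252, 219.9 and 292 at 120 min. These groups overlapped, and the changes were 0.02 ± 0.17 at 30 min (adjusted p = 0.962) and -0.12 ± 0.17 at 120 min (interval -0.48 to 0.24, adjusted p = 0.762). The difference between the probe sets was taken within each array as log2(104149_at + offset) minus log2(101554_at + offset). It was 0.14, -0.05 and -0.40 in untreated cells, -0.33, -0.15 and -0.40 at 30 min, and -0.86, -0.64 and -0.99 at 120 min. The 120 min arrays stood apart from all others. The mean difference shifted by -0.72 from untreated cells to 120 min and by -0.54 from 30 to 120 min (two-sided exact permutation p = 0.1 for each, the smallest that 3 against 3 allows), and by -0.19 at 30 min (exact p = 0.4). The fall of Nfkbia therefore rests on 1 of its 2 probe sets, and which transcripts each probe set detects was not examined.

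**Figure D2:**
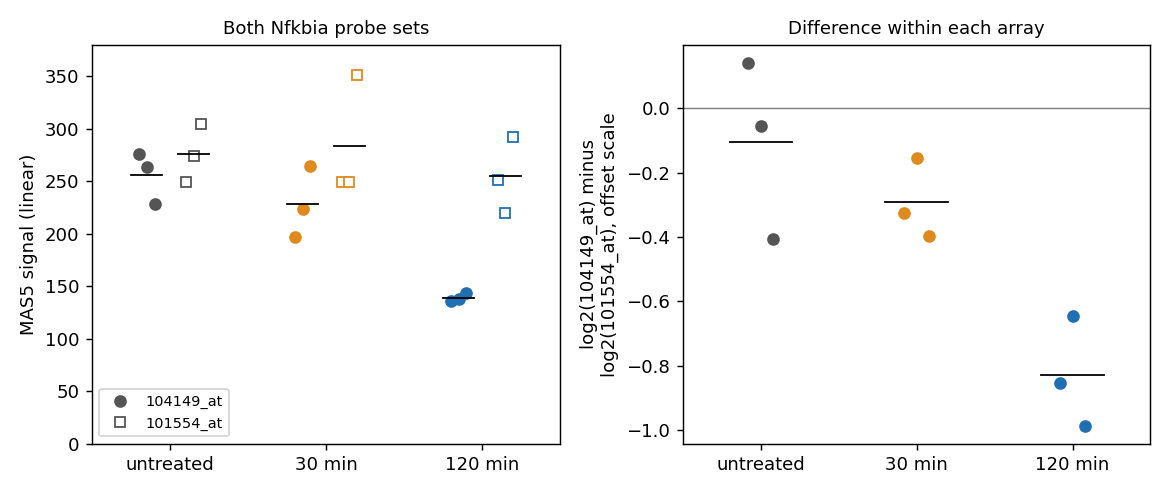
Left, MAS5 signal (linear scale from 0) of both Nfkbia probe sets on each array, with filled circles for 104149_at, open squares for 101554_at and bars at the mean of 3 arrays. Right, the difference of their log2 values within each array by group, which lay between -0.99 and -0.64 at 120 min and above that range on the other 6 arrays.

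The promoter of Nfkbia is shown for its kB-type matches beside those of Bcl3. It spans chr12:55492598-55492897 on the minus strand (RefSeq, GRCm38.p6), with the same window, direction and capitals.
Nfkbia: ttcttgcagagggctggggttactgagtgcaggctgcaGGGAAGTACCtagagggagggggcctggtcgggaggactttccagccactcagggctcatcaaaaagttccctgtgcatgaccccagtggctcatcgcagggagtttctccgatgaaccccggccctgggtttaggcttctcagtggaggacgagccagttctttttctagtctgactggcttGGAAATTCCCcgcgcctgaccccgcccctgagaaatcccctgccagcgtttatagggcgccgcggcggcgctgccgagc
The matches began at -212 and -29. Promoter windows were held for 7 of the 9 genes (Bcl3, Nfkb2, Rel, Rela, Nfkbia, Nfkbib and Nfkbie), with 3 for Nfkb2, and 6 of the 7 genes had a kB-type match. Nfkbib was the exception. TGACG occurred for 3 of the 7, Nfkb2, Rel and Nfkbib, and TTCNNNGAA for Nfkb2. Over all windows the shares were 50.8%, 20.8% and 8.3% in this order. Those shares are per window and these counts per gene, and whether they differ was not tested.

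Nfkbib (99982_at), the gene of IkB beta, measured 64.4, 68.3 and 87.9 untreated, 94.95, 55.4 and 131 at 30 min, and 117, 104 and 146 at 120 min. The 120 min arrays lay above all untreated arrays, and the 30 min arrays spread across both. Its change of 0.67 ± 0.25 at 120 min (interval 0.13 to 1.22) did not pass after adjustment (adjusted p = 0.214, unadjusted 0.0194), and with the fit limited to the compared groups the adjusted p was 0.0488. At 30 min it was 0.26 ± 0.25 (adjusted p = 0.713).

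Nfkbie (101727_at), the gene of IkB epsilon, had signals close to the filter, at 13.5, 43.5 and 19.0 untreated, 28.7, 28.2 and 35.8 at 30 min, and 47.1, 22.7 and 37.0 at 120 min. The untreated arrays alone spanned most of the range, and the groups overlapped. The changes were 0.32 ± 0.31 at 30 min (interval -0.36 to 1.00) and 0.45 ± 0.31 at 120 min (interval -0.23 to 1.13), with adjusted p-values of 0.715 and 0.509. A rise of up to 1.13 at 120 min thus lies within the error.

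At 30 min 1 of the 8 tested probe sets changed, Bcl3, against 0.357% of all 7851 tested probe sets, and 7 did not pass. At 120 min 2 of 8 changed, Bcl3 up and Nfkbia 104149_at down, against 3.38% of all tested. From 30 to 120 min the same pair of probe sets changed in the same directions, against 2.97%. Treated and untreated arrays did not overlap for 1 of 8 probe sets at 30 min, where 14.8% of all tested did not, and for 4 of 8 at 120 min (Bcl3, Nfkb2 and Nfkbib higher, Nfkbia 104149_at lower), where 25.3% did not. From 30 to 120 min they did not overlap for 3 of 8, against 16.5%. The median log2 change of the 8 was 0.20 at 30 min and 0.30 at 120 min, beside -0.04 and -0.04 over all tested probe sets, and 0.14 beside -0.01 between the times. Both comparisons with untreated cells share the same 3 control arrays.

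**Figure D3:**
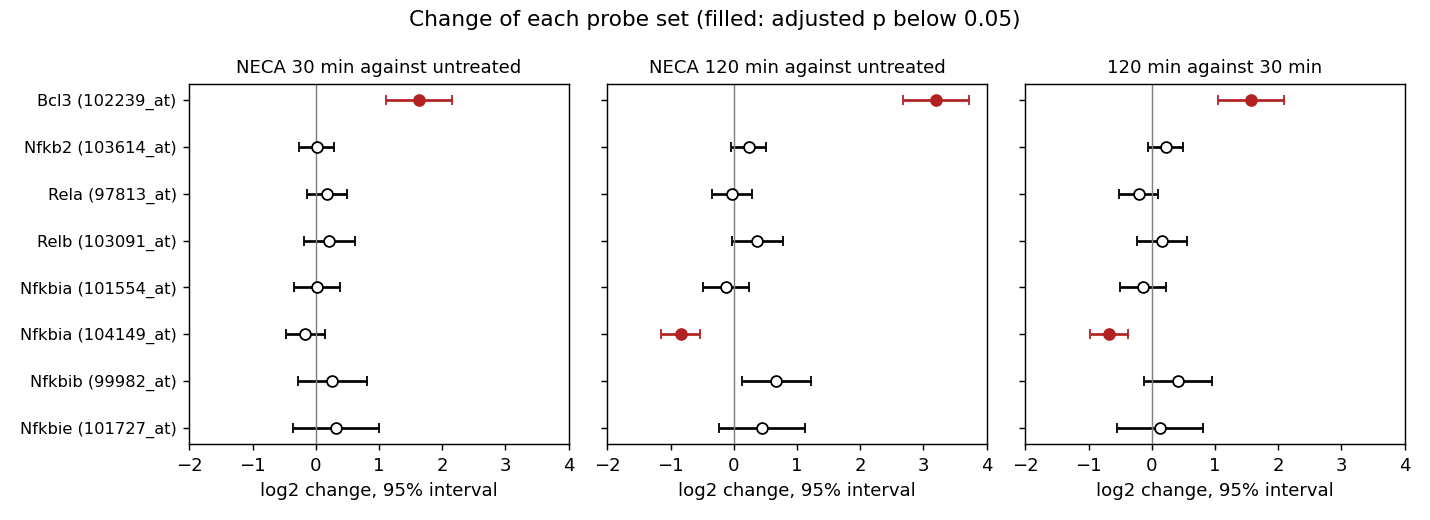
Log2 change on the log2(signal + offset) scale (x axis) with its 95% interval for each tested probe set (y axis) in the 3 comparisons; filled red points passed an adjusted p of 0.05 and open points did not. Bcl3 lies at 1.63, 3.20 and 1.57 with all intervals above 0, Nfkbia 104149_at lies at -0.84 and -0.68 in the comparisons it passed, and the other 6 probe sets stay between -0.21 and 0.67.

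The genes closest to Bcl3 in their course were found among 5894 other named genes as those with the smallest root mean square difference over the 9 arrays, each gene being centred on its untreated mean. They were Rgs2, a regulator of G protein signalling (0.49), Socs3, a feedback inhibitor of cytokine receptors (0.57), Ackr3, an atypical chemokine receptor (0.58), the deubiquitinase gene Usp2 (0.71) and the basic leucine zipper repressor gene Nfil3 (0.76), in log2 units, where the median over all genes was 2.14. Mean signals of Rgs2 were 5.06 ± 2.67, 28.6 ± 1.68 and 89.4 ± 13.5 (SD, n = 3 each) in the 3 groups in order of time. Those of Socs3 (92232_at) were 11.2 ± 4.38, 33.0 ± 10.1 and 235 ± 24.4 (SD of 3 arrays). The mean untreated signals of Rgs2, Socs3 and Ackr3 lay below the filter, as did the Ackr3 mean of 17.0 at 30 min, so these genes were tested through their treated arrays, and the size of their changes and their likeness to Bcl3 depend on the offset. Usp2 had untreated signals of 27.7 ± 20.2 (SD of 3 arrays), near the filter and widely spread, with centred log2 values of -0.35, -0.51 and 0.87. Rgs2 and Ackr3 passed at 30 min, and the other 3 did not (adjusted p from 0.0592 to 0.157). The 5 genes were picked for their likeness over these same 9 arrays, so their rise follows from that choice and is no separate support.

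**Figure D4:**
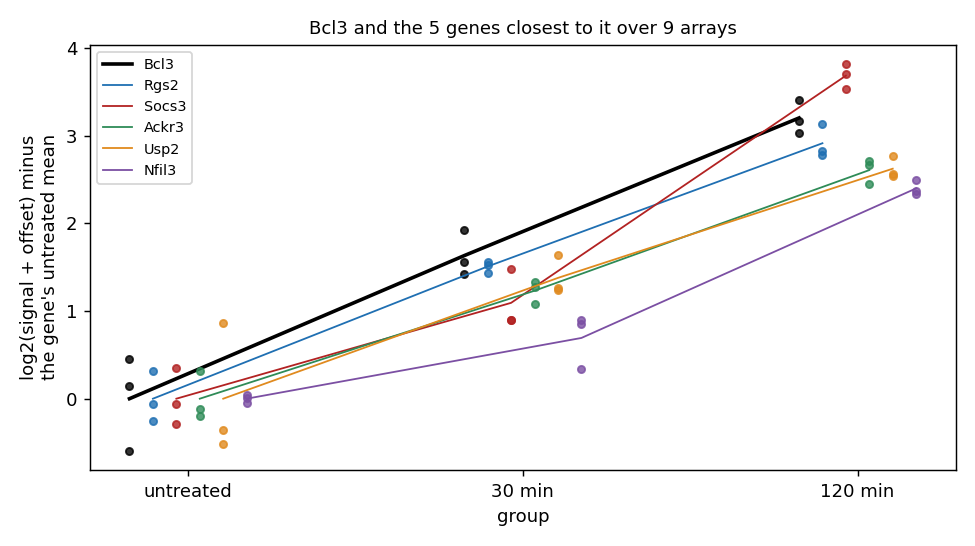
Log2(signal + offset) minus each gene's untreated mean (y axis) for Bcl3 and the 5 genes closest to it, by group (x axis); points are arrays and lines join the means of 3 arrays. Bcl3 reaches 1.63 and 3.20, Socs3 lies below it at 30 min (1.09) and above it at 120 min (3.69), and Nfil3 has the smallest mean at both times.

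For Nfkbia the probe set that passed, 104149_at, was used, a choice made after its values were seen. The closest genes were Synj2, a phosphoinositide phosphatase gene (0.13), Ppp1r15a, which encodes a regulatory subunit of the eIF2 alpha phosphatase (0.13), and the clock repressor gene Nr1d1 (0.15), against a median of 0.54. Their mean signals fell from 72.5 ± 6.59 to 38.3 ± 2.21, from 92.9 ± 4.89 to 50.5 ± 6.07 and from 86.9 ± 6.90 to 52.7 ± 3.46 at 120 min (SD, n = 3 each). The 3 genes were at -0.05 to -0.10 on the log2 scale at 30 min without passing.

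Genes that carry signals to NF-kB were read from a list of receptors and adaptors and a list of kinases and their partner proteins. Over all tested probe sets 0.357% changed at 30 min, 3.38% at 120 min and 2.97% between the times. Of 21 receptors and adaptors 13 were tested, with 0 changed at either time against untreated cells by limma (0 at 30 min and 1 at 120 min at an unadjusted p under 0.05, where 8.57% and 15.3% of all tested had one) and a median log2 change of -0.13 at 30 min and -0.09 at 120 min. Il1r1, the interleukin-1 receptor gene, had a change of 0.93 ± 0.24 at 120 min that did not pass (adjusted p = 0.0622) and rose from 30 to 120 min (1.00 ± 0.24, adjusted p = 0.0461), a call lost under 14 of 18 alternatives, among them each single array left out except NECA 30 min replicate 2 (adjusted p up to 0.177). At 120 min it passed under 7 of 18, among them without NECA 30 min replicate 2 (0.0485) or 3 (0.00843). The adaptor gene Myd88 and the ubiquitin ligase gene Traf5 were at 0.40 and -0.97 from 30 to 120 min, with adjusted p-values of 0.259 and 0.236.

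Of 10 genes in the kinase list, which also holds genes of partner proteins such as Ikbkg, 7 were tested, with medians of -0.07 at 30 min and -0.01 at 120 min. By limma 0 changed at 30 min and 1 at 120 min, beside 0.357% and 3.38% of all tested probe sets. Map3k8, which encodes the kinase Tpl2 that p105 holds inactive, was at 44.8, 30.7 and 43.5 untreated, 33.7, 42.2 and 33.3 at 30 min, and 3.10, 17.6 and 13.2 at 120 min. All 120 min arrays lay below all others, and it fell by 1.38 at 120 min (SE 0.29, adjusted p = 0.0199). Its 120 min signals lay below the filter, so it was tested through its untreated and 30 min arrays. The size of this change depends on the offset and ran from -0.94 to -1.97 over the alternatives. The call at 120 min was lost without untreated replicate 1 or 3 (adjusted p = 0.0963 and 0.0662) and with the Gapdh ratio as a covariate (0.146). A second probe set (161768_r_at) was at -0.10 (adjusted p = 0.891). From 30 to 120 min Map3k8 fell by 1.29 (adjusted p = 0.0327), which was lost without any NECA 30 min array or NECA 120 min replicate 1 or 3 (up to 0.0845), with an offset of 1 (0.0634), with no filter (0.0768), with the fit limited to those groups (0.0781) and with the covariate (0.0511). Ikbkg, the regulatory subunit of the IkB kinase, was at -0.51 at 30 min (103216_f_at, adjusted p = 0.277), and its other probe set (94196_at) at -0.13 (adjusted p = 0.728). The IkB kinase-related gene Ikbke was at 0.41 from 30 to 120 min (adjusted p = 0.41).

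Of 9 feedback inhibitors and atypical IkB genes 4 were tested and 0 passed in any comparison by limma, with 1, 1 and 2 at an unadjusted p under 0.05 at 30 min, at 120 min and between the times, beside 8.57%, 15.3% and 13.0% of all tested. The median log2 change was 0.01 at 30 min and -0.32 at 120 min. Nfkbiz, the gene of the nuclear protein IkB zeta, was at 0.12 ± 0.14 at 30 min and -0.25 ± 0.14 at 120 min (adjusted p = 0.759 and 0.416). Tnip1, a partner of the A20 deubiquitinase, was at -0.37 from 30 to 120 min (adjusted p = 0.301) and the deubiquitinase gene Otud7b at -0.51 at 120 min (adjusted p = 0.206).

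Among 40 NF-kB target genes 36 had a probe set under their symbol and 24 were tested. At 30 min 2 rose, 0 fell and 22 did not pass, with a median log2 change of 0.09. At 120 min 3 rose, 1 fell and 20 did not pass (median 0.04). Over all tested probe sets 0.357% changed at 30 min and 3.38% at 120 min. Il6, the interleukin-6 gene, had signals of 2.79, 1.08 and 2.76 untreated, 49.9, 96.6 and 55.9 at 30 min and 276, 407 and 304 at 120 min. Its groups did not overlap in either step, and it rose by 2.85 ± 0.22 and 5.04 ± 0.22 on the log2(signal + 7.93) scale (adjusted p = 0.000136 and 1.16e-07). Its untreated signals lay below the filter, so it was tested through its treated arrays and the size depends on the offset, from 1.92 to 4.41 at 30 min and from 3.93 to 6.72 at 120 min over the alternatives. Ier3, an immediate early gene, rose by 1.37 at 30 min and 0.82 at 120 min. Ptgs2, which encodes cyclooxygenase-2, rose by 0.92 ± 0.20 at 120 min (adjusted p = 0.0284). At 30 min it stood at 0.90 ± 0.20 without passing (adjusted p = 0.157). Its untreated signals of 18.9, 17.0 and 12.1 lay below the filter, so it was tested through its treated arrays. The size at 120 min depends on the offset and ran from 0.66 to 1.18 over the alternatives. Its call at 120 min was lost without any single untreated or NECA 120 min array (up to 0.0918). It was also lost with the Gapdh ratio as a covariate (0.156) and with no filter (0.0624).

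The chemokine gene Cxcl5 fell at 120 min (-0.85 ± 0.17, adjusted p = 0.0157), a call that ended when untreated replicate 1, untreated replicate 2 or NECA 120 min replicate 1 was left out (adjusted p up to 0.0837) and with the Gapdh ratio as a covariate (0.0502). From 30 to 120 min Il6 rose while Cxcl1, Cxcl5 and Ier3 fell, Cxcl1 by 0.64 (adjusted p = 0.00501), and 20 did not pass. Between the times 2.97% of all tested probe sets changed. The fall of Ier3 between the times (-0.55, adjusted p = 0.0247) was lost without NECA 30 min replicate 1 or 3 or any NECA 120 min array (up to 0.103), with no filter (0.0604) and with no intensity trend (0.0621). The target genes Ccl2, Ccl7, Saa3 and Lcn2 had high signals already in untreated cells, with means of 2646, 1114, 2529 and 973 (n = 3 each), and changes of -0.23, 0.11, 0.21 and 0.26 at 120 min without passing (adjusted p from 0.264 to 0.845). Tnf and Il1b did not pass the filter. These 6 genes were chosen for mention after their values were seen.

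STAT3 is a transcription factor activated by receptors of the interleukin-6 family, and its pathway was measured by 10 genes, all tested. At 30 min 1 rose and 9 did not pass (median -0.04), and at 120 min 4 rose, 1 fell and 5 did not pass (median 0.37). Of all tested probe sets 0.357% and 3.38% changed at these times. Socs3 rose by 3.69 ± 0.21 at 120 min (adjusted p = 6.37e-07), with untreated signals below the filter and a range of 3.02 to 4.33 over the alternatives, and its second probe set (162206_f_at) rose by 2.11. Cebpd, a C/EBP transcription factor gene, rose by 0.99 ± 0.14 at 30 min (adjusted p = 0.00939) and 2.12 ± 0.14 at 120 min. The call at 30 min was lost without untreated replicate 2 (adjusted p = 0.074), with the fit limited to the compared groups (0.0514) and with the Gapdh ratio as a covariate (0.87). Cebpb rose by 1.11 ± 0.14 at 120 min (adjusted p = 0.000773).

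Stat3 itself rose by 0.54 ± 0.12 at 120 min (99099_at, adjusted p = 0.0307), and the call held in only 2 of the 9 fits with 1 array left out, those without NECA 30 min replicate 2 or 3 (adjusted p up to 0.142 in the others). It was also lost with the Gapdh ratio as a covariate (0.157). Its other probe set (99100_at) rose by 0.88 (adjusted p = 0.00416). Il6ra, the interleukin-6 receptor gene, fell by 0.60 at 120 min (adjusted p = 0.0375). Leaving out any array other than NECA 30 min replicate 2 or 3 ended that call (up to 0.159), as did quantile normalization (0.0635), no filter (0.0792) and the covariate (0.154). From 30 to 120 min 3 of the 10 rose and 7 did not pass, while 2.97% of all tested probe sets changed. The rises were 2.59 for Socs3, 1.12 for Cebpd and 0.58 for Stat3. The last call (adjusted p = 0.0222) was lost without NECA 30 min replicate 1 or any NECA 120 min array (up to 0.106), with only the compared groups (0.0871) and with the covariate (0.0506).

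Adenosine receptors can raise cyclic AMP, which acts on transcription through CREB family factors. Of 9 genes of this family and its co-activators 4 were tested. Crem, which encodes both activators and the inducible repressor ICER, was at 27.3, 23.8 and 28.6 untreated, 26.4, 34.2 and 25.5 at 30 min, and 149.97, 172 and 150.03 at 120 min. Untreated and 30 min arrays overlapped, and the 120 min arrays lay far above both. It rose by 2.26 ± 0.15 at 120 min (adjusted p = 1.9e-06) and by 2.18 from 30 to 120 min, and a second probe set (160526_s_at) rose by 2.46 at 120 min. At 30 min Crem was at 0.08 (adjusted p = 0.844) and its second probe set at 0.46 ± 0.20 (adjusted p = 0.57). Atf2 was at -0.29 and the co-activator gene Crebbp at 0.15 at 120 min, and neither passed (adjusted p = 0.519 and 0.772), and Crebbp was below 0 without untreated replicate 2 and with the Gapdh ratio as a covariate.

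**Figure D5:**
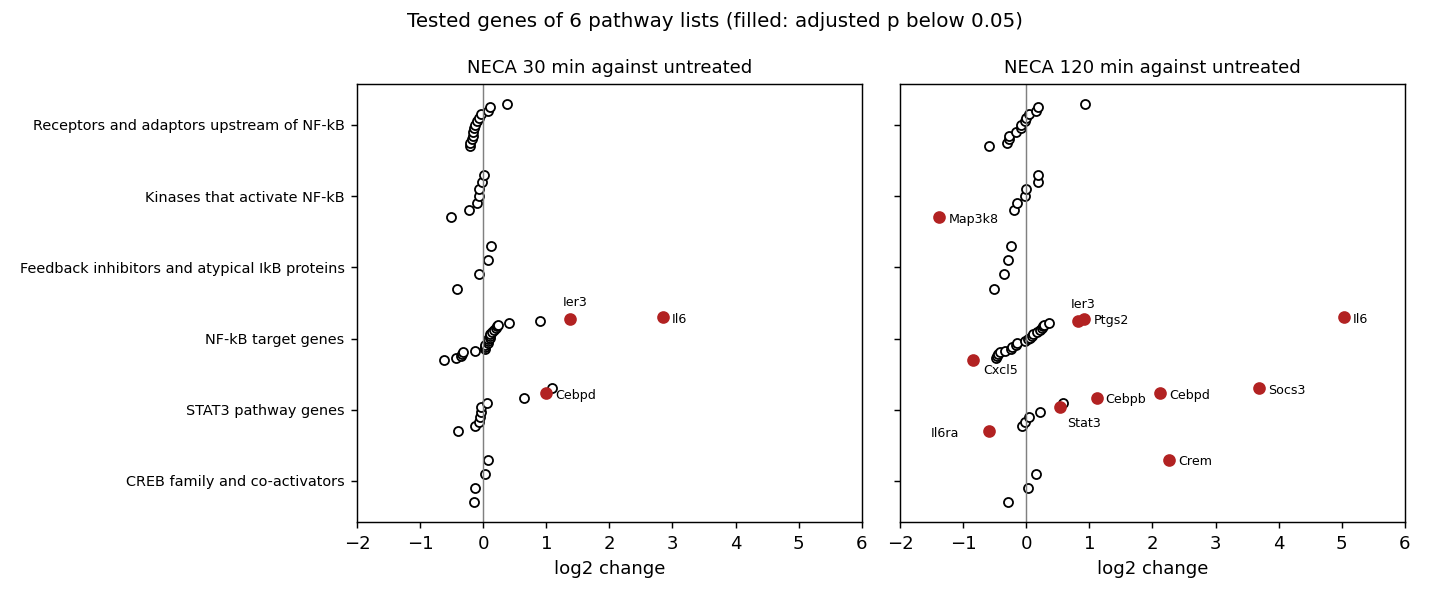
Log2 change of each tested gene in 6 pathway lists (rows) at 30 min and at 120 min against untreated cells; filled red points passed an adjusted p of 0.05 and are named, open circles did not pass, and the height within a row only spreads the points. At 120 min Il6 (5.04), Socs3 (3.69), Crem (2.26) and Cebpd (2.12) lie farthest to the right and Map3k8 (-1.38) farthest to the left. The distances of Il6, Socs3, Ptgs2 and Map3k8 depend on the offset, since Il6, Socs3 and Ptgs2 lay below the filter in untreated cells and Map3k8 at 120 min.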

How the data were processed

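RNA from 9 TtT/GF cultures was hybridised to Affymetrix mouse genome arrays, version 2 of the U74 A chip. The authors deposited MAS5 signal intensities on a linear scale, with MAS5 named in the submitters' processing notes and its version and background settings not given in the sources used here. The mean after trimming 2% of values at each end was 100.06 to 100.07 on every array, so arrays had been scaled alike. Genes were named from GEO's platform annotation, in which 10833 of 12422 probe sets had 1 symbol, 396 several and 1193 none. Signals were analysed as log2(signal + 7.93), the offset being the 25th percentile of all values. Probe sets above 20.5, the 40th percentile, in at least 3 arrays were tested (7851), and 4571 were left out. An offset keeps low signals from giving large fold changes and makes changes of low genes smaller.

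All 9 arrays were fitted with limma 3.58.1 in R 4.3.3 (lmFit, eBayes with an intensity trend), with Benjamini-Hochberg adjustment over all tested probe sets and a threshold of 0.05. For single values, exact permutation tests (two-sided) were used. The fit was tested on simulated data. Named genes were all members, list genes that passed or were among the 3 smallest p-values of their list, and the genes closest to Bcl3 and Nfkbia, each gene by its probe set of highest mean. Members and lists were chosen with earlier results of these data known. Promoter sequences are RefSeq's (GRCm38.p6). Alternatives changed the offset, filter, scaling, variance trend, arrays in the fit, replicate block and RNA quality covariate.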

Additional observations from a re-analysis of the deposited data

Results flagged for a closer look

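Bcl3 and Nfkbia 104149_at differed between the 2 treatment times in a direct test of 120 min against 30 min. Bcl3 was higher at 120 min by 1.57 on the log2(signal + offset) scale, with all 3 arrays at 120 min above all 3 at 30 min. Nfkbia 104149_at was lower by the same comparison, with a log2 change of -0.68 and all 3 arrays at 120 min below all 3 at 30 min. That call was lost under 5 of 18 alternatives, among them without any 1 of the NECA 120 min arrays (adjusted p by limma 0.0622 to 0.0802), and the other Nfkbia probe set was at -0.14 (adjusted p = 0.791).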

How the results depend on the processing

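Over 18 alternatives (9 single arrays left out and 9 other settings), 412 of the 432 values of the 8 tested probe sets kept their direction and their side of the threshold. With the Gapdh ratio as a covariate 5 probe sets changed at 30 min and 164 at 120 min, against 28 and 265, the members changed numbered 0 at 30 min and 1 between the times, and Bcl3 at 30 min was 1.54. With the fit limited to the compared groups 1 member changed between the times. Nfkbia 101554_at at 30 min reversed to -0.0073 with quantile normalization and to -0.26 with the covariate, under which Nfkb2 (-0.044) and Nfkbib (-0.063) at 30 min and Crebbp (-0.032) at 120 min also reversed. The Gapdh ratio did not overlap between untreated and 30 min arrays, so calls lost with it at 30 min cannot be divided between RNA quality and NECA. The cause was not tested.

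Without single arrays the probe sets changed numbered 15 to 85 at 30 min (15 without untreated replicate 2, and 85, 46 of them lower, without NECA 30 min replicate 2), 158 to 317 at 120 min (160 without untreated replicate 1, 158 without untreated replicate 2, 167 without NECA 120 min replicate 3) and 147 to 307 between the times (147 and 151 without NECA 120 min replicates 2 and 3). Members changed between the times numbered 1 to 2. Values that crossed 0 without single arrays were Nfkbia 101554_at at 30 min (-0.14 to 0.10) and between the times (-0.24 to 0.020), Nfkb2 at 30 min (-0.035 to 0.097), Nfkbib at 30 min (-0.0019 to 0.57), Rela at 120 min (-0.11 to 0.048), Nfkbie between the times (-0.061 to 0.36) and Crebbp at 120 min (-0.13 to 0.38), none of which passed the test.

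Deviations of same-numbered arrays from their group means correlated at -0.17 to 0.23 over 9 pairs, and 1 pair exceeded 0.1. With 3 arrays in a group, such correlations cannot show whether cultures of the same number were handled together. With the replicate number as a block 27, 247 and 198 probe sets changed at 30 min, at 120 min and between the times, and no call of a tested member was lost or gained. Among the named list genes the block ended the calls of Stat3 (99099_at, adjusted p by limma 0.0585) and Il6ra (0.0704) at 120 min and of Ier3 between the times (0.0531), and Il1r1 at 120 min passed (0.0349). Signals near background on all arrays gave no value for Rel.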
